A study of Mus musculus with 6 samples.

Results

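Macrophage marker genes and genes of major histocompatibility complex (MHC) class II antigen presentation were followed in the adult mouse heart after recombination of Nelfb, which encodes a subunit of the polymerase pausing complex NELF. The set was a fixed list of 31 genes, taken with every array probe annotated to them. Of these, 29 had at least 1 annotated probe, 44 probes in all, out of 25696 on the array. No probe was annotated to Csf1r or Cd68 in the annotation used here. A detection filter kept 30 of the 44 probes, and 23 of the 31 genes were tested among 7579 genes in all. Genes that fell below the filter are described by how often they were detected.

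Heart RNA from 6 female mice on a C57BL/6J background was hybridised to Illumina bead arrays. Both groups were homozygous for the floxed allele (Nelf-b f/f). Only the 3 knockout mice also had CreER, which encodes a tamoxifen-dependent Cre recombinase, and the 3 control mice had none. Tamoxifen was given to both groups at 8 weeks, and hearts were collected at 20 weeks from mice on regular chow that had fasted for 5 hours. Cre itself and the loss of Nelfb therefore cannot be told apart. The sources used here do not name the promoter of CreER, so whether macrophages recombined Nelfb was not tested.

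The heart holds resident macrophages, which clear debris and support the conduction of the heartbeat, and monocytes that enter from the blood and mature into macrophages. Many resident macrophages carry the scavenger receptors Lyve1, Cd163 and Mrc1 and make the complement component C1q, whereas cells derived recently from blood monocytes carry the chemokine receptor Ccr2. A subset of cardiac macrophages, like dendritic cells and B cells, displays peptides on MHC class II. The class II alpha and beta chains (H2-Aa, H2-Ab1, H2-Eb1) pair around the invariant chain, encoded by Cd74, which proteases such as legumain (Lgmn) and cathepsin S (Ctss) cut away before H2-DM (H2-DMa, H2-DMb1) helps to load the peptide.

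Signs depend on a conflict between the deposited tables. The table of intensities that were not normalized names each array with the group opposite to its sample record, and the groups here follow the records. Nelfb, measured as log2 intensity, was 7.01, 7.08 and 7.08 on the control arrays and 5.41, 5.46 and 5.46 on the knockout arrays. It was lower on all knockout arrays, with a log2 difference of -1.61 ± 0.13 SE (limma, Benjamini-Hochberg adjusted p = 0.000183). With the other naming the same difference is 1.61, and every sign given here turns. The Nelfb values are those of the brightest of its 2 annotated probes. With the mean of its detected probes, the difference was -1.28 under the naming used here (limma, adjusted p = 0.00064). Mean signal before normalization ran from 169.8 to 310.3 per array, and 38.8% to 43.8% of probes were detected. Control array 1 stood apart on the second principal component, at 18.71 against -8.55 to 1.64 for the others. Of 9 cardiomyocyte markers with a probe, 8 passed the detection filter, Myh6 and Myl2 among them, as did 10 of 10 endothelial markers.

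Across the whole list, Cd74 was the one gene that passed the test, and it fell in the knockout hearts. Of the 23 genes tested, 1 was called lower and 0 higher by limma at an adjusted p below 0.05, or 4.35%. Of all 7579 genes, 4.25% were called in either direction, 2.01% lower and 2.24% higher. The share called was close to that of the array as a whole. At an unadjusted p below 0.05, Cd74, H2-Aa and H2-Ab1 were lower and Lyz2 was higher, 4 of 23, where 20.4% of all genes had such a p and 10.2% had it with a lower mean. The median log2 difference of the 23 was -0.17, against 0.006 over all genes tested. In 17 of the 23 the knockout mean was below the control mean, as it was for 49.1% of all genes. Because these are bulk samples, fewer cells of a type and less RNA per cell cannot be told apart.

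**Figure D1:**
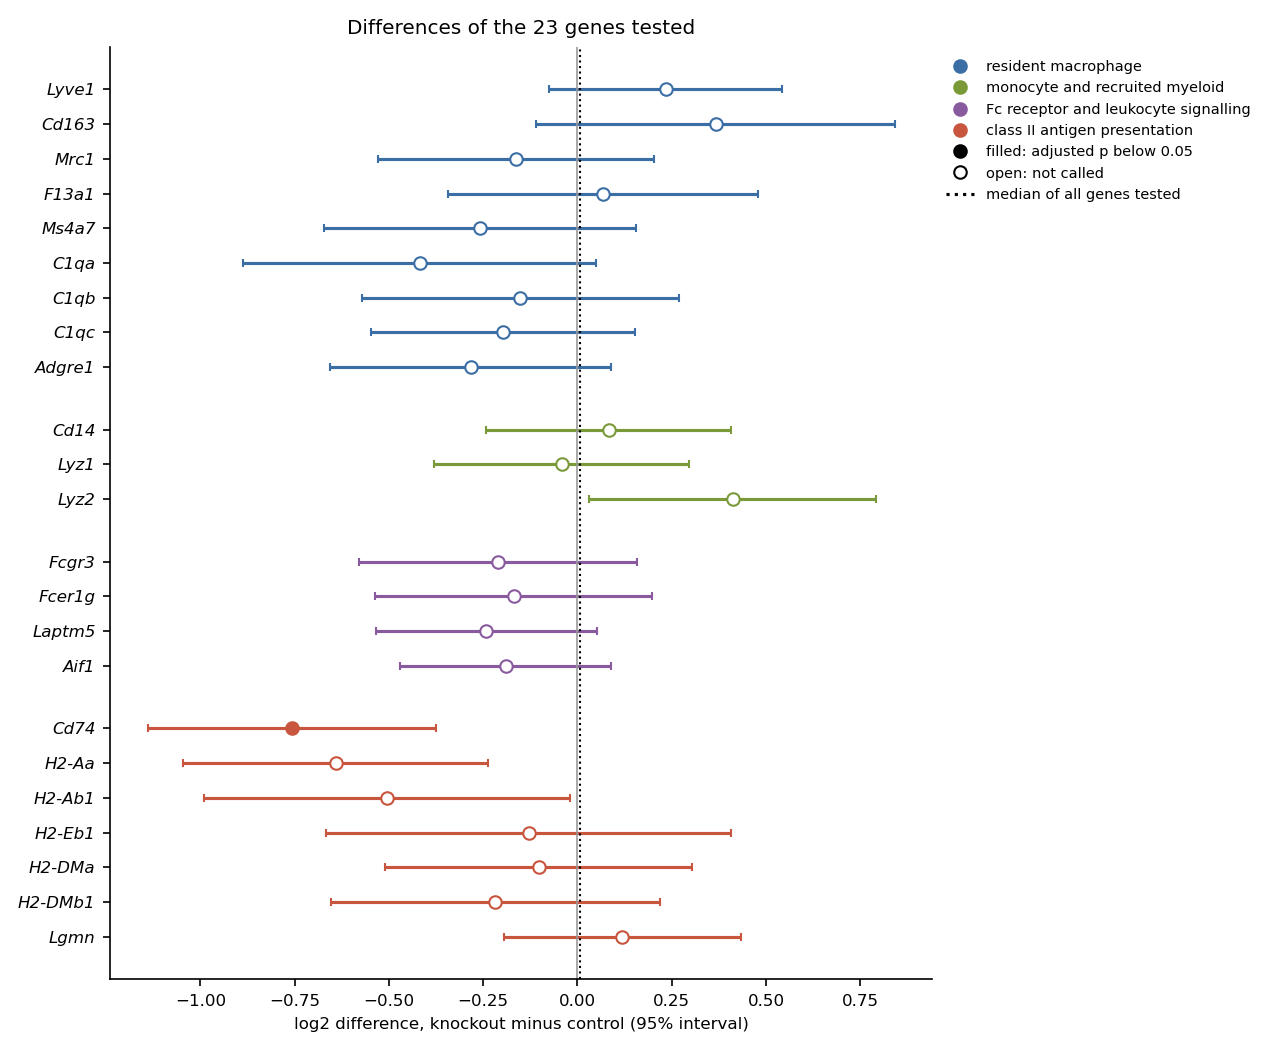
Log2 difference, knockout minus control, of the 23 genes tested, grouped by role, with limma's 95% interval as bars; the filled point is the gene called at an adjusted p below 0.05, and the dotted line is the median of all genes tested. Cd74 lies at -0.76 and is filled. H2-Aa at -0.64 and H2-Ab1 at -0.50 lie next to it with open points, and the other 20 genes lie between -0.42 and 0.41.

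The 3 largest differences of the list were those of the class II genes Cd74, H2-Aa and H2-Ab1. Of the 7 tested, 1 was called lower, 6 had a lower mean in the knockouts, and the median difference was -0.22. Of all genes tested, 2.01% were called lower and 49.1% had a lower mean. Without control array 1, only 3 of the 7 class II genes had a lower mean. Cd74 encodes the invariant chain, which fills the peptide groove of new class II molecules and steers them to endosomes. On its brighter probe, log2 intensity was 8.54, 8.27 and 8.13 on the control arrays and 7.69, 7.23 and 7.75 on the knockout arrays. No knockout array reached the lowest control array. The group means (SD, n = 3 each) were 8.31 ± 0.21 in controls and 7.56 ± 0.28 in knockouts, a log2 difference of -0.76 ± 0.17 SE or 1.69-fold lower (limma, adjusted p = 0.0365). The second Cd74 probe read 7.94, 7.92 and 8.13 on the control arrays and 7.10, 6.92 and 7.77 on the knockout arrays. It too was separated by group, with a difference of -0.74 ± 0.20 SE (limma on single probes, adjusted p = 0.0695), so it did not pass the threshold by itself. In that fit 3.8% of all detected probes were called, and the brighter Cd74 probe was the 1 call among the 30 kept probes of the list. The call of Cd74 was lost when any single array was left out, with adjusted p-values from 0.0509 without knockout array 3 to 0.130 without knockout array 2, while the difference stayed between -0.85 and -0.60. It was also lost under median scaling (adjusted p = 0.509), with undetected probes kept (0.104) and with the replicate number as a block (0.0577).

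H2-Aa encodes the alpha chain of I-A, the class II molecule that C57BL/6 mice display. Its log2 intensity was 6.61, 6.37 and 6.55 on the control arrays and 5.64, 5.67 and 6.30 on the knockout arrays. Knockout arrays 1 and 2 lay well below the controls, and knockout array 3 lay just under the lowest control. The difference was -0.64 ± 0.18 SE, or 1.56-fold, with a 95% interval of -1.05 to -0.24 and an adjusted p of 0.0784 (limma), so H2-Aa was not called. Without knockout array 3 the difference was -0.85 (adjusted p = 0.0220).

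H2-Ab1, the beta chain that pairs with H2-Aa, was read by 4 detected probes. The brightest gave 8.53, 7.83 and 8.08 on the control arrays and 7.46, 7.38 and 8.10 on the knockout arrays. Knockout arrays 1 and 2 were below all controls, and knockout array 3 was inside the control range. The difference was -0.50 ± 0.22 SE (limma, adjusted p = 0.230), with a 95% interval of -0.99 to -0.02. The 4 probes gave differences from -0.56 to -0.14, all of the same sign and none called. On the probe with -0.14 the values were 7.74, 7.16 and 7.15 on the control arrays and 7.04, 6.96 and 7.62 on the knockout arrays, so on that probe as well control array 1 and knockout array 3 were the high arrays of their groups.

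H2-Eb1 encodes the beta chain of I-E. C57BL/6 mice lack a working gene for its partner H2-Ea, and the H2-Ea probe was detected on 0 of the 6 arrays. The values of H2-Eb1 were 8.13, 7.42 and 7.72 on the control arrays and 7.39, 7.29 and 8.20 on the knockout arrays. Knockout array 3 was the highest of all 6 arrays, whereas the other knockout arrays were below every control. The difference was -0.13 ± 0.24 SE (limma, adjusted p = 0.812), and its 95% interval of -0.67 to 0.41 leaves room for a change of either sign. The sign turned to 0.06 without control array 1 and to 0.04 without knockout array 2.

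The remaining class II genes work inside the cell, and none was called. H2-DMa, a chain of the peptide editor H2-DM, read 6.09, 5.88 and 5.50 on the control arrays and 5.54, 5.61 and 6.01 on the knockout arrays, with a difference of -0.10 ± 0.19 SE. H2-DMb1, its partner chain, read 5.76, 4.88 and 5.22 on the control arrays and 5.07, 5.01 and 5.13 on the knockout arrays, with a difference of -0.22 ± 0.20 SE. In both, the knockout arrays lay inside the control range. H2-DMb1 has a close paralog, H2-DMb2, whose transcripts its probe may also bind, and the H2-DMb2 probe itself was detected on 0 arrays. Lgmn, a lysosomal protease that starts the breakdown of the invariant chain, read 8.99, 8.66 and 8.72 on the control arrays and 8.87, 8.85 and 9.02 on the knockout arrays and had a difference of 0.12 ± 0.14 SE. The probe of Ctss, the protease that finishes this step in many antigen presenting cells, was detected on 1 of 3 control arrays and 0 of 3 knockout arrays and was not tested.

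**Figure D2:**
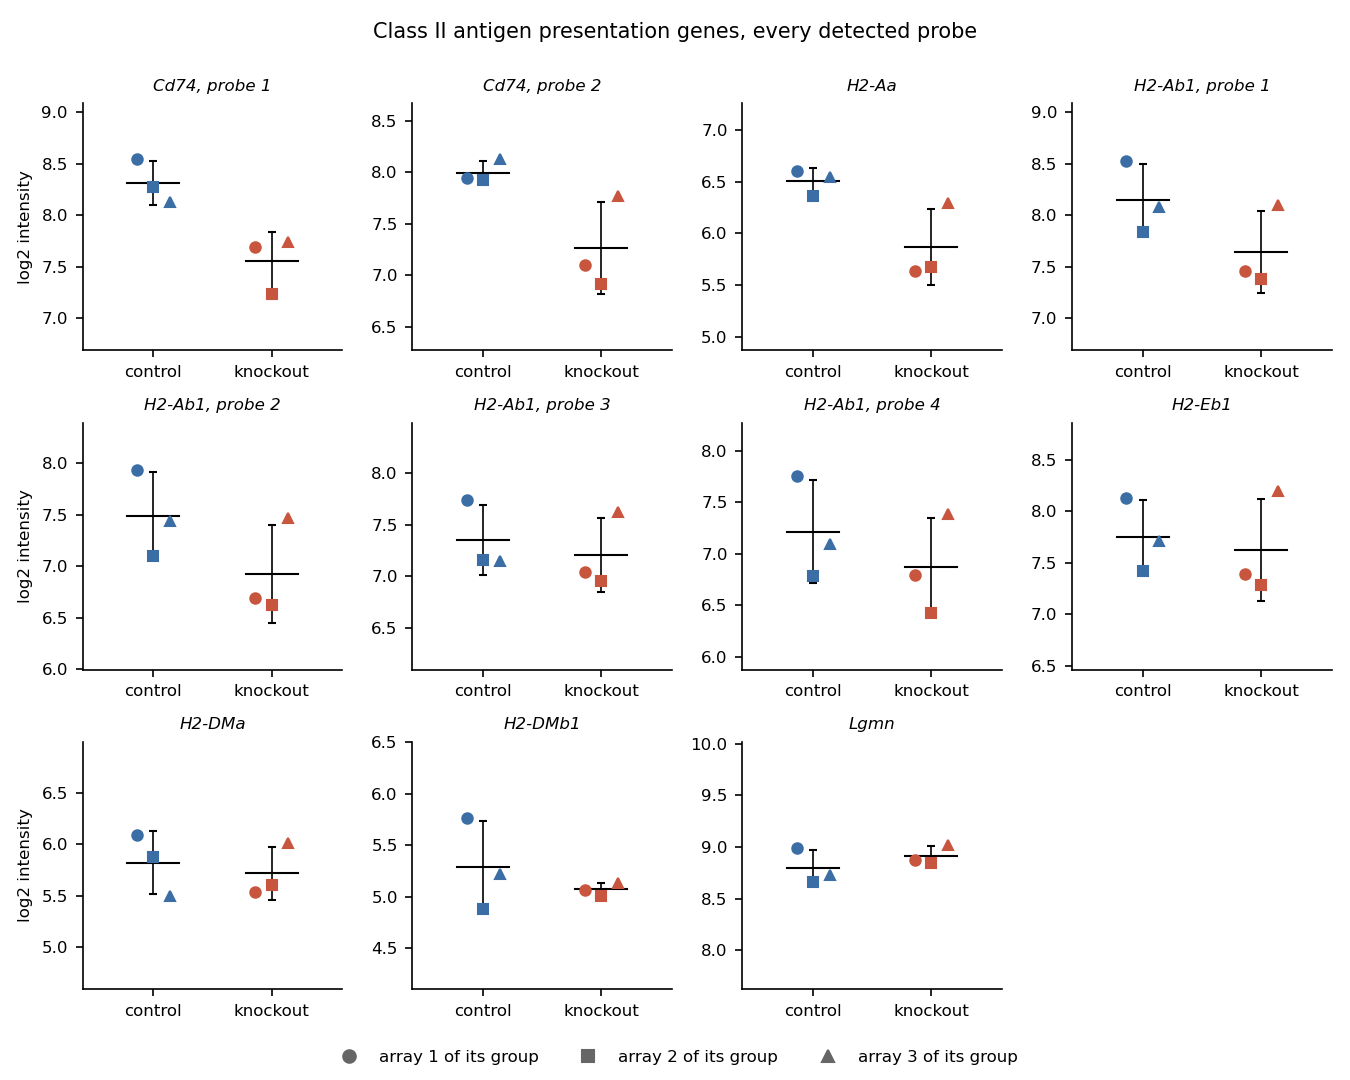
Log2 intensity of every detected probe of the class II genes, with 1 point per array (blue, control; red, knockout; the marker shape gives the array number within its group), the mean as a line and the SD as a bar; each vertical axis spans the same number of log2 units. The groups of both Cd74 probes and of H2-Aa do not overlap, and the knockout triangle (array 3) is the highest knockout point in all 11 panels.

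Within each group the class II genes had the same high arrays. Control array 1 was the highest control for 7 of 7 class II genes on their brightest probe, against 43% of all genes tested. Knockout array 3 was the highest knockout array for 7 of 7, against 32.2% of all genes. The second Cd74 probe was an exception in the controls, where array 3 was highest. Expressed as the deviation from each gene's mean over the 6 arrays, the class II median was 0.44, -0.06 and 0.04 (log2) on control arrays 1, 2 and 3 and -0.24, -0.40 and 0.17 on knockout arrays 1, 2 and 3. The ranges of the groups overlapped, with knockout array 3 above control arrays 2 and 3. Without control array 1 the median difference of the class II genes was 0.02, against -0.22 with it, and without control array 2 or knockout array 3 it was -0.42. This ordering was noticed after the values were seen and has no test. The within-group SD had a median of 0.28 over the 7 genes and of 0.19 over all genes tested.

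Class II genes share a promoter module, in which an X box is bound by the RFX complex and a Y box by NF-Y, and both serve as a platform for the class II transactivator Ciita. The class II list used here also holds protease genes, and no promoter was matched for Cd74 or H2-Ab1, so these were not searched. Of its 6 genes with a RefSeq promoter, the proteases Lgmn and Ctss among them, 3 held the letters of the Y box searched here. Of these 3, 2 also held those of the X box. The last 110 bases before the transcription start of these 3, chosen because they hold the letters, are shown 5′ to 3′ along the gene, from RefSeq on GRCm38.p6. Capitals mark the letters TGATTGG, a Y box core, and CTAGNAAC, the first part of the X box, each searched on both strands. The window of H2-Aa lies at chr17:34287824-34287933 on the minus strand, that of H2-Eb1 at chr17:34305757-34305866 on the plus strand and that of H2-DMb1 at chr17:34153081-34153190 on the plus strand.
H2-Aa: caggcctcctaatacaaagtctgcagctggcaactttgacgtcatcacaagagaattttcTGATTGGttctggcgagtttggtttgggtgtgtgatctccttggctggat
H2-Eb1: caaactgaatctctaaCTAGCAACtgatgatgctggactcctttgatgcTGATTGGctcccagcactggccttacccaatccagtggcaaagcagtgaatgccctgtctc
H2-DMb1: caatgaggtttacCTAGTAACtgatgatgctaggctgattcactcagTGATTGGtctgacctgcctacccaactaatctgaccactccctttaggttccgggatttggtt
The first base of the Y box letters lay 50, 61 and 63 bases before the start in H2-Aa, H2-Eb1 and H2-DMb1. The X box letters began 94 bases before the start in H2-Eb1 and 97 in H2-DMb1, and did not overlap the Y box letters. Only exact matches were counted, so a variant X box would be missed. The H2-Aa window holds ctggcaac, which is close to CTAGNAAC and was not counted. In the 250 bases before each start, TGATTGG occurred for 8.38% of 27025 genes with a promoter entry (7.23% of 32851 promoters), and CTAGNAAC for 3.5% of these genes (3.06% of promoters). RefSeq promoters were matched for 23 of the 31 listed genes. TGATTGG was found for 4 of the 23 (Cd68, H2-Aa, H2-DMb1 and H2-Eb1) and CTAGNAAC for 3 (F13a1, H2-DMb1 and H2-Eb1). A match of letters is a description and shows no binding in these hearts. The 3 genes shown differed by -0.64 (H2-Aa), -0.13 (H2-Eb1) and -0.22 (H2-DMb1) between the groups, and none was called.

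Resident macrophage genes showed no called change. Of the 11 listed, 9 were tested, 0 were called by limma and 0 had an unadjusted p below 0.05. Their median difference was -0.16, with 6 below the control mean and 3 above it. Without knockout array 1 that median was -0.04, with 5 below and 4 above, and without control arrays 1, 2 and 3 in turn it was -0.10, -0.08 and -0.25. The scavenger receptor genes went in different directions. Lyve1, a hyaluronan receptor, read 5.00, 5.10 and 5.31 on the control arrays and 5.32, 5.48 and 5.33 on the knockout arrays, with all knockout arrays above all controls by a small margin and a difference of 0.23 ± 0.14 SE (limma, adjusted p = 0.380). Cd163, the receptor for haemoglobin bound to haptoglobin, read 5.15, 6.01 and 5.66 on the control arrays and 6.02, 5.67 and 6.22 on the knockout arrays. The groups overlapped, and the difference was 0.37 ± 0.22 SE. Mrc1, the mannose receptor, read 6.36, 6.50 and 6.04 on the control arrays and 5.89, 6.24 and 6.28 on the knockout arrays, with overlapping groups and a difference of -0.16 ± 0.17 SE. For Mrc1 the 95% interval ran from -0.53 to 0.20 on the log2 scale, that for Cd163 from -0.11 to 0.84.

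Lyve1 also marks lymphatic vessels. Of 4 lymphatic endothelial genes tested, Prox1, a transcription factor of lymphatic vessels that cardiomyocytes also express, rose (0.92 ± 0.16 SE, limma adjusted p = 0.0102), and Pdpn (-0.24), Ccl21a (0.20) and Reln (0.09) were not called. Their part in the Lyve1 value was not tested.

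The C1q genes encode the 3 chains of the molecule that starts the classical complement pathway and that tissue macrophages supply. C1qa read 5.72, 6.30 and 6.39 on the control arrays and 5.35, 5.77 and 6.03 on the knockout arrays, with a difference of -0.42 ± 0.21 SE (limma, adjusted p = 0.295) that was the largest among the resident genes. C1qb read 8.58, 8.42 and 8.21 on the control arrays and 7.82, 8.47 and 8.46 on the knockout arrays and C1qc 7.88, 7.57 and 7.59 on the control arrays and 7.28, 7.44 and 7.73 on the knockout arrays. In all 3, knockout array 1 lay below every control, and another knockout array reached into the control range. The differences were -0.15 ± 0.19 SE for C1qb and -0.20 ± 0.16 SE for C1qc, and neither was called. Without knockout array 1 the difference of C1qb was 0.07.

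F13a1, the A chain of coagulation factor XIII, read 6.70, 7.33 and 7.07 on the control arrays and 6.84, 7.11 and 7.35 on the knockout arrays and had a difference of 0.07 ± 0.19 SE, with groups that covered nearly the same range. Ms4a7, a membrane protein gene of macrophages, read 4.99, 5.53 and 5.03 on the control arrays and 4.82, 5.24 and 4.72 on the knockout arrays on its detected probe and had a difference of -0.26 ± 0.19 SE. Adgre1, an adhesion receptor whose protein is a classical surface marker of mouse macrophages, gave 2 detected probes of opposite sign. The brighter probe read 5.67, 5.50 and 5.25 on the control arrays and 5.19, 4.93 and 5.45 on the knockout arrays, with a difference of -0.28 ± 0.17 SE, and the other read 4.66, 4.86 and 5.11 on the control arrays and 4.75, 5.20 and 5.00 on the knockout arrays, with 0.10 ± 0.17 SE. Its groups overlapped on both probes, so no direction is given for Adgre1.

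**Figure D3:**
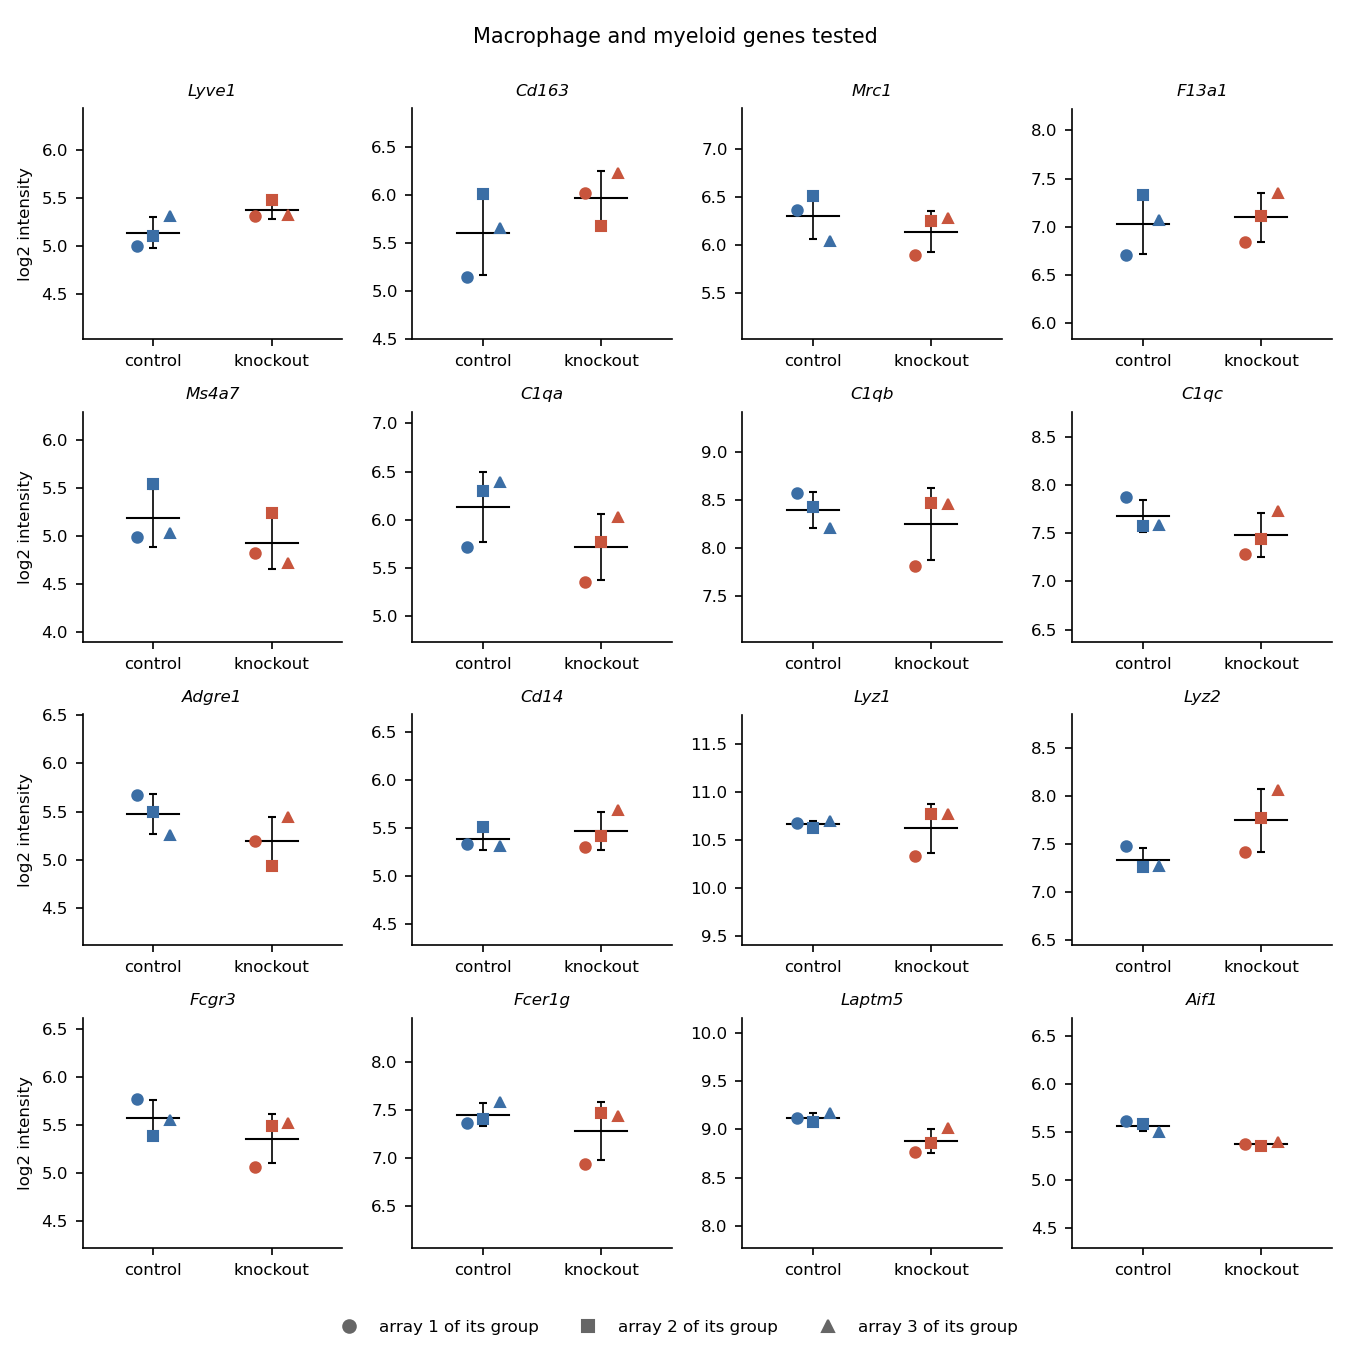
Log2 intensity of the 16 macrophage and myeloid genes tested, on the probe with the highest mean, with 1 point per array (blue, control; red, knockout; the marker shape gives the array number within its group), the mean as a line and the SD as a bar; each vertical axis spans the same number of log2 units. The groups separate without overlap for Lyve1, Laptm5 and Aif1, and the knockout circle (array 1) is often the lowest point, as for C1qb, Lyz1 and Fcer1g.

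No gene of monocytes and recruited myeloid cells was called by limma, with 3 of 5 tested and 1, Lyz2, at an unadjusted p below 0.05. Ccr2, the receptor that brings monocytes out of the bone marrow and into tissue, was detected on 0 of 6 arrays, and so was Itgam, the alpha chain of the complement receptor CR3. Such probes give no direction. Cd14, a co-receptor for bacterial lipopolysaccharide, read 5.33, 5.51 and 5.31 on the control arrays and 5.30, 5.41 and 5.69 on the knockout arrays and had a difference of 0.08 ± 0.15 SE.

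Lysozyme, an enzyme that digests bacterial cell walls, is encoded in mice by the close paralogs Lyz1 and Lyz2, and a probe for one may bind transcripts of the other. Lyz2 read 7.48, 7.27 and 7.27 on the control arrays and 7.41, 7.77 and 8.07 on the knockout arrays on its brighter probe, with knockout arrays 2 and 3 above all controls and array 1 inside their range. The difference was 0.41 ± 0.17 SE (unadjusted p = 0.0368, limma adjusted p = 0.212), the largest positive difference of the list, and it was not called. The other detected Lyz2 probe read 6.95, 7.10 and 7.32 on the control arrays and 6.83, 7.15 and 7.18 on the knockout arrays, with a difference of -0.07 ± 0.16 SE, so the probes of Lyz2 disagreed in sign. Of the 3 Lyz1 probes, 1 was detected, and it read 10.68, 10.63 and 10.69 on the control arrays and 10.33, 10.77 and 10.77 on the knockout arrays, a difference of -0.04 ± 0.15 SE. Its control arrays lay within a narrow range, and knockout array 1 stood below them while the other knockout arrays stood above.

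Among Fc receptor and leukocyte signalling genes, 4 of 7 were tested, none was called by limma, none had an unadjusted p below 0.05, and all 4 had a lower mean in the knockouts, with a median difference of -0.20. Without knockout array 1 the median was -0.12, and 1 of the 4 had a higher mean. Laptm5, a lysosomal membrane protein of blood cells, read 9.12, 9.07 and 9.17 on the control arrays and 8.76, 8.86 and 9.01 on the knockout arrays, with all knockout arrays below all controls. Its difference was -0.24 ± 0.13 SE (limma, adjusted p = 0.339). Aif1, a calcium-binding protein of macrophages also called Iba1, was likewise separated on its brighter probe, at 5.61, 5.58 and 5.50 on the control arrays and 5.37, 5.35 and 5.39 on the knockout arrays. That difference was -0.19 ± 0.13 SE, and the second detected probe overlapped between groups with -0.09 ± 0.18 SE. Fcgr3, a low-affinity receptor for immunoglobulin G, read 5.77, 5.38 and 5.55 on the control arrays and 5.06, 5.49 and 5.52 on the knockout arrays, with a difference of -0.21 ± 0.17 SE. Fcer1g, the signalling chain that Fc receptors share, read 7.37, 7.41 and 7.59 on the control arrays and 6.94, 7.47 and 7.45 on the knockout arrays, with a difference of -0.17 ± 0.17 SE. In Fcgr3 and Fcer1g it was knockout array 1 that lay below the controls.

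Groups that did not overlap were found for 5 of the 23 genes tested (Lyve1, Laptm5, Aif1, Cd74 and H2-Aa). That share was close to the 24.9% of all genes tested that had such groups. The 3 remaining genes of Fc receptors and leukocyte signalling were dim. Tyrobp, the adaptor protein also called DAP12, was detected on 2 of 3 control arrays and 0 of 3 knockout arrays, at 4.54, 5.06 and 4.75 on the control arrays and 4.43, 4.54 and 4.50 on the knockout arrays. Tyrobp was below the filter and not tested, and no fold is given because a control array was undetected as well. Fcgr1, the high-affinity receptor for immunoglobulin G, was detected on 1 control array and on no knockout array. Ptprc, the pan-leukocyte antigen CD45, had 2 probes, and neither was detected on any array.

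By array, the roles did not follow a single order. Knockout array 1 was the lowest knockout array for 6 of 9 resident macrophage genes, 3 of 3 monocyte and recruited myeloid genes and 3 of 4 Fc receptor and leukocyte signalling genes, against 32.6% of all genes tested. For class II genes, knockout array 2 was the lowest in 5 of 7. The median deviation of the resident genes was -0.23 on knockout array 1 and -0.07 to 0.22 on the control arrays, and on knockout arrays 2 and 3 it was 0.02 and 0.12. Left out of the fit, knockout array 1 moved the median difference of all 23 genes from -0.17 to -0.04.

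**Figure D4:**
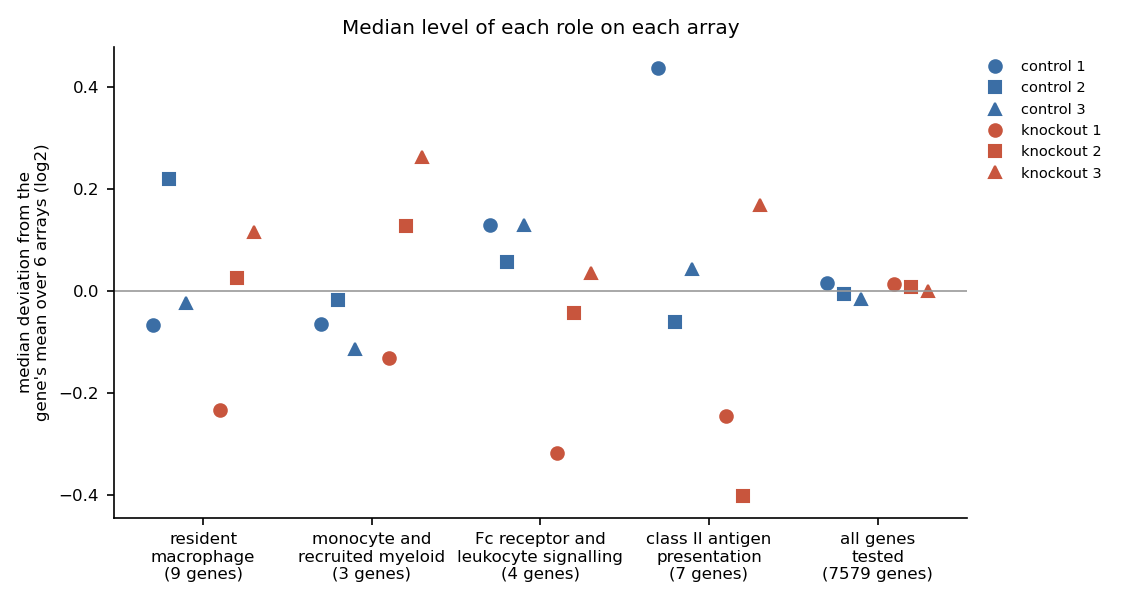
Median, over the genes of each role, of the deviation of log2 intensity from the gene's mean over the 6 arrays, with 1 point per array (blue, control; red, knockout; the marker shape gives the array number). For class II genes control array 1 is highest at 0.44 and knockout array 2 lowest at -0.40, whereas for the other roles knockout array 1 is lowest; all genes tested stay between -0.02 and 0.02.

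Of 58 other macrophage genes listed, 36 were tested, with a median difference of -0.05. In 20 the knockout mean was below the control mean, and in 16 it was above. The highest differences were those of Gpnmb (0.34) and Vsig4 (0.28), with overlapping groups and no call. Among these 36, 2 were called lower and 0 higher, or 5.56%. Over all genes tested, 4.25% were called in either direction and 2.01% were called lower. Ctsc, the lysosomal protease cathepsin C, fell (-0.60 ± 0.13 SE, limma adjusted p = 0.0325). Unc93b1, which carries nucleic acid sensing Toll-like receptors to endosomes, also fell (-0.69 ± 0.15 SE, limma adjusted p = 0.0325). Ctsc had 3 annotated probes and Unc93b1 had 2, and the values are those of the brightest. Unlike Cd74, these genes were not followed under the other settings or without single arrays. Of the 36, 10 had groups that did not overlap, where 24.9% of all genes tested had such groups in either direction. All 10 were lower in the knockouts, and 11.4% of all genes were lower without overlap. This direction was noticed after the values were seen and has no test. The 10 include Mertk, a receptor for the uptake of dying cells (-0.45, limma adjusted p = 0.102), the folate receptor gene Folr2 (-0.35) and Ly86 (-0.44). None of these was called, and they are named after their values were seen. Also among the 10 were dim genes, such as Ncf4, detected on only 3 arrays, and Cd83, detected on 4.

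No other gene of the class II pathway was called. Of 20 listed, 8 were tested, 0 were called by limma and 0 had an unadjusted p below 0.05, with a median difference of 0.23. The NF-Y subunit genes Nfyc (0.31 ± 0.14 SE) and Nfyb (0.26 ± 0.16 SE) and the co-stimulatory receptor gene Cd40 (0.26 ± 0.15 SE) had the smallest p-values. Ciita, the transactivator of class II genes, was detected on 0 arrays, as was Rfx5, so their levels could not be compared. Among 11 macrophage growth factor and chemokine genes tested, 0 were called and 1 had an unadjusted p below 0.05. This was Csf1, the growth factor that binds Csf1r, with -0.49 ± 0.15 SE (limma, adjusted p = 0.0898) and no overlap between groups. Ccl4, a chemokine gene, followed with -0.32 ± 0.19 SE, but it was detected on only 3 arrays, so its difference rests partly on undetected signal.

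Dendritic cells and B cells also carry class II. Of 10 dendritic cell markers, 2 were tested, Siglech (0.12) and Zbtb46 (-0.02), neither was called, and 6, among them Flt3, Xcr1 and Itgax, were detected on 0 arrays. No lymphocyte marker passed the filter: of 18 with a probe, 12 were detected on 0 arrays, including the B cell genes Cd79a, Cd79b and Ms4a1. Of 16 monocyte and neutrophil markers with a probe, 4 were tested and 0 called, with Treml4 at 0.27 and S100a9 at -0.26. No mast cell marker passed the filter. None of 10 endothelial markers was called, and their median difference was 0.02. Of 8 fibroblast markers tested, Gsn, an actin-severing protein made by many cell types, rose (1.13 ± 0.20 SE, limma adjusted p = 0.0130), and the median was 0.13. None of 8 cardiomyocyte markers tested was called, Tnni3 having -1.05 ± 0.32 SE and Pln -0.22 ± 0.20 SE. In these 3 lists limma gave an unadjusted p below 0.05 for 0, 1 and 1 genes.

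**Figure D5:**
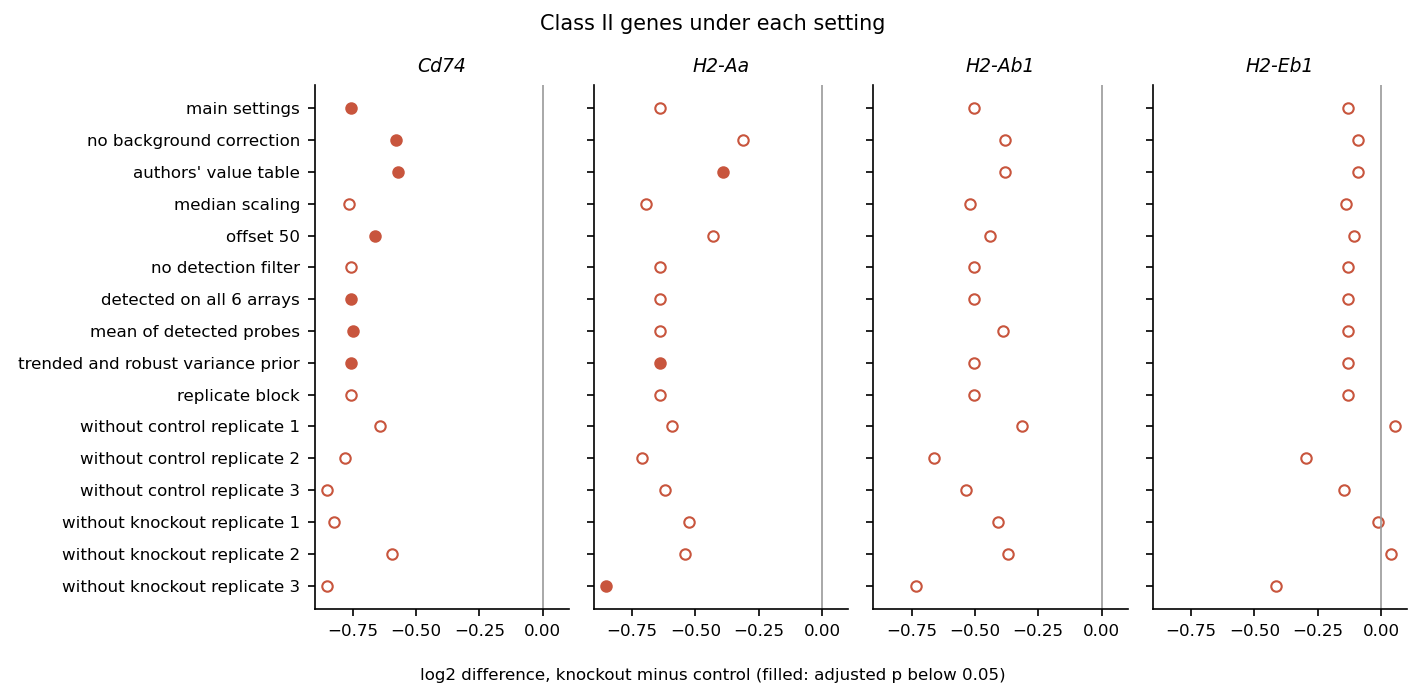
Log2 difference, knockout minus control, of 4 class II genes under the main settings and each alternative or left-out array (rows); filled points have an adjusted p below 0.05. Cd74, H2-Aa and H2-Ab1 stay below 0 throughout, Cd74 between -0.85 and -0.57, whereas H2-Eb1 lies on both sides of 0.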

How the data were processed

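The members and gene lists were chosen with earlier results of these data known. The authors deposited bead intensity values without normalization and a detection p-value for each probe and array, per the file headers, and a value table of intensities on a linear scale. Its columns had medians of 97.48 to 97.57, and its scaling is not stated; GenomeStudio is named in the submitters' processing notes. Each column of the first table ranked probes as 1 value-table column did (Spearman rho of 1; the highest other rho was 0.855), with the same replicate number and the opposite group name. Arrays follow the sample records. Probes were named through GEO's platform annotation, and 23961 of 23977 probes with a symbol matched RefSeq by gene identifier.

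The function neqc (limma 3.58.1, R 4.3.3, offset 16) corrected background and applied quantile normalization. A probe needed a detection p under 0.05 on 3 or more arrays, and the brightest probe stood for its gene. Knockout was tested against control with lmFit and eBayes on the log2 scale, 2-sided, with Benjamini-Hochberg adjustment over 7579 genes and a threshold of 0.05. Single probes were tested likewise over 10407 probes. SE is limma's moderated standard error, and SD is over 3 arrays. Named genes were all members, Nelfb, and from each other list the called genes or up to 2 with the smallest p; others are named as examples. The fit was also run on simulated data, with differences larger than that of any listed gene, so that run does not bear on changes of the size given here. Settings changed one at a time were background correction, scaling, offset, detection filter, probe choice, variance prior, replicate block and each array. Of the named genes, only the members and Nelfb were followed under these settings. Deviations from the group means correlated between arrays of the same replicate number with r of -0.053, 0 and -0.062, so the numbers were not treated as pairs. Figures were drawn with matplotlib 3.10.9 in Python 3.11.15.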

Additional observations from a re-analysis of the deposited data

How the results depend on the processing

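The count of genes called, 322, was 562 when background was left uncorrected, 579 in the value table of the authors, 558 at offset 50 and 645 with a trended, robust variance prior. It was 54 under median scaling and 142 when undetected probes were kept. Leaving out single arrays, with normalization and genes tested kept, gave 100 to 401. The count of listed genes called, 1 (Cd74), was 2 (Cd74 and H2-Aa) in the value table and with the trended, robust prior. It was 0 under median scaling (adjusted p of Cd74 = 0.509) and with undetected probes kept (0.104, with more genes tested), and 0 to 1 without single arrays, the 1 being H2-Aa without knockout array 3. With the replicate number as a block it was 0 (Cd74, adjusted p = 0.0577), and 171 genes were called in all; the arrays share only a number. The median difference of the listed genes, -0.169, ran from -0.249 to -0.042 without single arrays, the latter without knockout array 1. The cause of these shifts was not tested. Over 15 alternatives, 11 of the 23 listed genes tested stayed below the controls and 4 above, and 8, none of them called, took both signs. The variance prior, the replicate block and both changes of the detection filter left each of these differences as under the main settings. Those alternatives therefore do not bear on the sign. No alternative used a dimmer probe by itself. Of the genes that kept a sign, Adgre1 (below) and Lyz2 (above) each had a second detected probe of the opposite sign. No slide was named, so no slide block was fitted. The call of Cd74 was lost whichever of the 6 arrays was left out, whereas that of Nelfb was kept each time. H2-Aa was not called under the main settings and was called without knockout array 3. Of the 44 probes, 14 were too dim to compare.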
